A study of Homo sapiens with 22 samples.

Results

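The genes described here encode ribosome biogenesis factors and nucleolar proteins, measured by RNA-Seq in HUDEP-2 cells, an immortalized human erythroid progenitor line derived from umbilical cord blood. Members were chosen by name, with earlier results of these data known. They were the NOP, NOL, UTP and RRP series followed by a number, the RNA polymerase I subunits POLR1A to POLR1E, and BOP1, PES1, WDR12, NCL, NPM1, FBL, DKC1, NHP2 and GAR1. Of 59087 gene names present in both count tables, 48 matched. The study asked how the histone variant H2A.X and the kinase BAZ1B, which phosphorylates it, bear on erythroid maturation, and deleted either gene with CRISPR/Cas9 in separate experiments. The H2A.X experiment holds 2 WT and 3 H2A.X KO libraries at D0 and the same numbers at D6. The BAZ1B experiment holds 3 WT and 3 BAZ1B KO libraries at each day. All cells were HUDEP-2 subclones, which the study obtained by plating edited cells at about 1 cell per well. They were kept in expansion medium with stem cell factor, erythropoietin, dexamethasone and doxycycline (D0) or moved to differentiation medium for 6 days (D6). The deletions removed the H2A.X coding region or the first exon of BAZ1B on both alleles, and the genotype of a library is also that of its clone.

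Ribosome production begins in the nucleolus, where RNA polymerase I transcribes ribosomal DNA into a long precursor RNA. Small nucleolar ribonucleoproteins (snoRNPs) modify this precursor: box C/D particles, built on fibrillarin (FBL), NOP56 and NOP58, methylate riboses, and box H/ACA particles, built on DKC1, NHP2, NOP10 and GAR1, make pseudouridine. The UTP proteins and several RRP, NOP and NOL proteins form the small subunit processome, while the PeBoW complex of PES1, BOP1 and WDR12 serves assembly of the large subunit. Erythroid precursors are known for their sensitivity to faults in this pathway: mutations in ribosomal protein genes cause Diamond-Blackfan anaemia, and the nucleolus shrinks as erythroblasts condense their chromatin.

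Total counts ran from 11910141 to 21013004 per library in the H2A.X experiment and from 33199408 to 41273244 in the BAZ1B experiment, and the biological coefficient of variation was 0.239 and 0.0865, so that smaller differences could be resolved in the latter. The targeted genes checked the labels: H2AFX, the name of H2A.X in the tables, had 308 to 1050 normalized counts in KO libraries against 1575 to 2391 in WT, and BAZ1B had 6556 to 8349 against 9104 to 9913. In the BAZ1B experiment all 14 erythroid markers rose from D0 to D6 in both genotypes, while the 6 measured mast cell and eosinophil markers fell. In WT cells the summed erythroid markers ranged over libraries between 248571 and 277217 normalized counts at D0 and between 1473550 and 1692840 at D6, and the summed mast cell and eosinophil markers between 17548 and 19094 at D0 and between 1127 and 1532 at D6. The 1 measured of 8 megakaryocyte markers, ITGA2B, and 2 of 3 measured granulocyte and monocyte markers fell as well. In the H2A.X experiment edgeR called 13 of 14 erythroid markers higher at D6 in KO cells and 0 of 14 in WT cells (14.8% and 0.839% of all genes). In WT cells 5 reached an unadjusted p below 0.05 and DESeq2 called 0. The log2 fold change in WT cells was above 0 for 12 of the 14, with a median of 0.79. For 10 of them every D6 library exceeded every D0 library, as for 25.2% of all genes. The summed mast cell and eosinophil markers stood at 1821 to 2456 normalized counts in H2A.X WT libraries at D0 and 2541 to 4069 at D6, so the H2A.X WT libraries labelled D6 differed from the others in this respect. The part of these marker differences in the results below was not tested. In bulk RNA, fewer cells of a type and less RNA per cell cannot be told apart.

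The members made up 0.969 to 0.998% of all counts in BAZ1B WT libraries at D0 and 0.736 to 0.800% at D6. In BAZ1B KO cells the share was 0.923 to 1.02% at D0 and 0.772 to 0.821% at D6. The ranges of the days did not overlap in either genotype. In the H2A.X experiment the share was 1.02 to 1.13% in WT and 0.846 to 0.922% in KO cells at D0, and 0.834 to 0.897% and 0.537 to 0.866% at D6. Counts of hemoglobin genes took 0.215 to 0.285% of a BAZ1B WT library at D0 and 2.11 to 2.49% at D6.

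Levels of the 48 genes spanned several orders of magnitude. Per kb of transcript, NPM1 (nucleophosmin, a histone and ribosomal protein chaperone) was highest in BAZ1B WT cells at D0, at a mean of 45710 normalized counts per kb over 3 libraries. FBL followed at 20973, NCL (nucleolin) at 17736, NOP53 at 9504 and NOP10 at 8384. Subunits of 1 complex did not share a level: within the PeBoW complex PES1 stood at 3362 normalized counts per kb, BOP1 at 2537 and WDR12 at 458. The catalytic subunit POLR1A had 799 per kb and POLR1D, which RNA polymerases I and III share, 6068. These values divide by the length of the canonical transcript, and the transcript used in these cells was not examined.

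**Figure D1:**
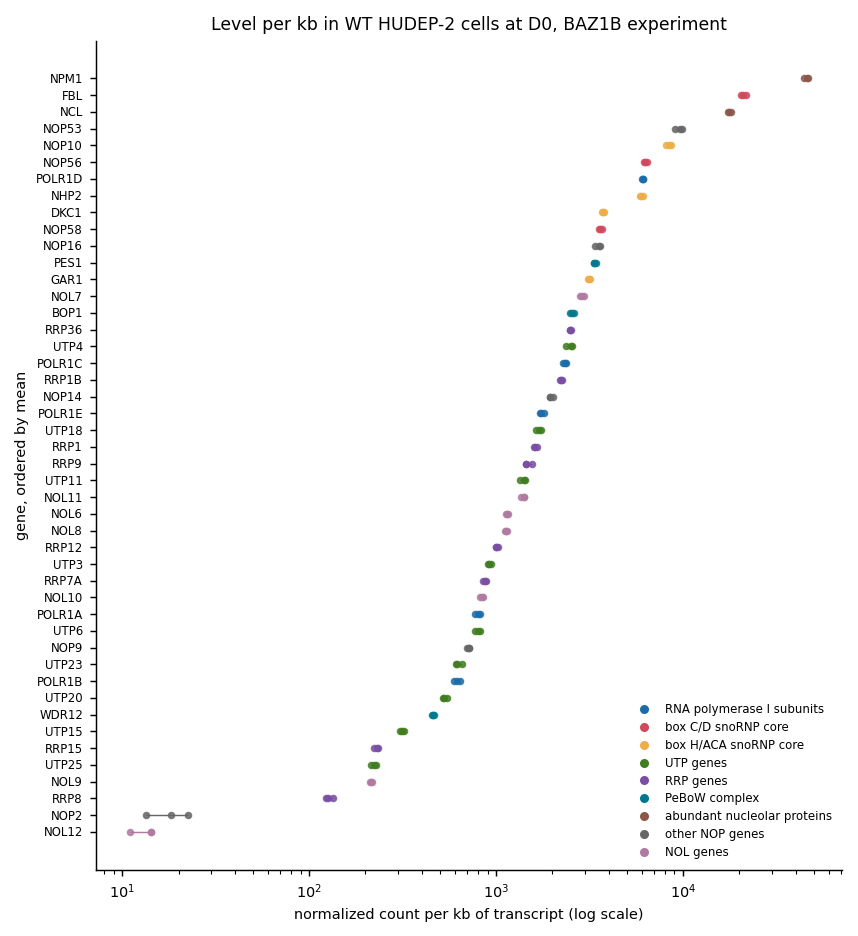
Normalized count per kb of transcript (log scale) of each member in the 3 WT libraries of the BAZ1B experiment at D0, with genes ordered by their mean and coloured by role. Points are libraries and lines join the lowest and highest; NPM1 lies at the top and NOL12 and NOP2 at the bottom, while UTP14C and NOL4 are not drawn.

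At the lower end, UTP14C had no read in any library and NOL4 at most 1, and these 2 genes entered no test after the filter on low counts; without the filter NOL4 was tested on its 1 read in the BAZ1B experiment and not called. All exon bases of UTP14C lie within ALG11 on the same strand. NOP2, a methyltransferase of large subunit ribosomal RNA, had 88 counts in all 10 libraries of the H2A.X experiment and 517 in the 12 of the BAZ1B experiment, and NOL12 had 347 and 578. A readthrough gene shares 54.4% of the exon bases of NOP2 and 22.0% of those of NOL12, and a read in shared exons cannot be told apart between them. The values of NOP2 and NOL12 are therefore uncertain. Further members overlap a gene on the opposite strand, RRP7A over 33.9% of its exon bases, NHP2 over 28.0% and NOP9 over 26.1%, and without a stated strand setting such reads cannot be told apart. Inside 6 members lie 16 small nucleolar RNA genes, of which NOP56 holds 5, NOP58 4 and NCL 3.

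Promoter sequences were examined because many ribosome biogenesis genes are known targets of MYC, which binds the E-box CACGTG with its partner MAX. RefSeq (GRCh38.p14) windows of 250 bases before to 50 bases after the start were found by symbol for 41 of the 48 members, 48 windows in all. The letters CACGTG, which read the same on both strands, were present for 14 of these 41 members (34.1%) and in 14 of their 48 windows. Of all 35116 windows 7.26% held them, and of the 13784 windows of genes tested in the BAZ1B experiment 9.97%. The ETS motif CCGGAAG, searched on both strands, was present for 15 of 41 members (36.6%). By window it was in 16 of their 48, against 17.9% of windows of tested genes. Matches to these 2 motifs cannot overlap. Median GC content was 63.2% in members' windows and 58.7% in all. The windows of 3 members are shown, in lower case with the E-box in capitals, since they come from 3 different assemblies and have the motif within a short distance of the start.
FBL (chr19:39846330-39846629, minus strand): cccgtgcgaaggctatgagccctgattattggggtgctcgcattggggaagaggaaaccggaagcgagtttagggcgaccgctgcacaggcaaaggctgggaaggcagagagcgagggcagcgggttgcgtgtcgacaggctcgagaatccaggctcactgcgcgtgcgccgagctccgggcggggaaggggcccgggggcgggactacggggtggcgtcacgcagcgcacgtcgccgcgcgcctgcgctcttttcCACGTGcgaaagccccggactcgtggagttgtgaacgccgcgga
PES1 (chr22:30591861-30592160, minus strand): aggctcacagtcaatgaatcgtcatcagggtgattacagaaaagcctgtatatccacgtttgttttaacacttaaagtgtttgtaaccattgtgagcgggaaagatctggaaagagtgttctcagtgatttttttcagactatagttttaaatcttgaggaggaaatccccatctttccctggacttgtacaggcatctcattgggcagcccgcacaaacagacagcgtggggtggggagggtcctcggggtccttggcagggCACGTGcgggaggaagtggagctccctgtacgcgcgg
UTP20 (chr12:101279855-101280154, plus strand): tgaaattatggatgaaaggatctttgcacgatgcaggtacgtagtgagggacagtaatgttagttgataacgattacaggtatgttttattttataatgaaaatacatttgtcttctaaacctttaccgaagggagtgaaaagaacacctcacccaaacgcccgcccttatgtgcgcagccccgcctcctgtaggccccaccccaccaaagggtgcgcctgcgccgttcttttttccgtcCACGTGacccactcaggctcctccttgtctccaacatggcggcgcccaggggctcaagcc
The E-box began at position +7 from the start for FBL, at +14 for PES1 and at -10 for UTP20. Presence of these letters is a description of the sequence and says nothing of binding in these cells.

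The first comparison asks how the genes changed as BAZ1B WT cells matured from D0 to D6. Of 46 members tested, 28 fell and 7 rose at a Benjamini-Hochberg adjusted p below 0.05 (edgeR quasi-likelihood test), where 35.4% of all 13879 genes fell and 33.5% rose. The median log2 fold change was -0.15 for the members and -0.02 for all genes tested. The changes were small: 30 of the 35 called members moved by less than 0.5 on the log2 scale. Of the members, 30 were lower in every D6 library than in every D0 library and 9 were higher, where 39.9% and 38.1% of all genes were so.

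In BAZ1B KO cells 23 members fell and 9 rose over the same interval (34.5% and 33.2% of all genes), and the median was -0.10. The WT and KO comparisons hold separate libraries, but they share the estimate of the spread, so their calls are not independent. All 23 members that fell in KO cells fell in WT cells, being 82.1% of the 28, and the 7 that rose in WT cells all rose in KO cells, being 77.8% of the 9. For all tested genes, those that fell in both were 86.0% of those that fell in WT cells and 88.2% of those that fell in KO cells, and those that rose in both were 85.2% and 86.1%. No member was called in opposite directions.

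**Figure D2:**
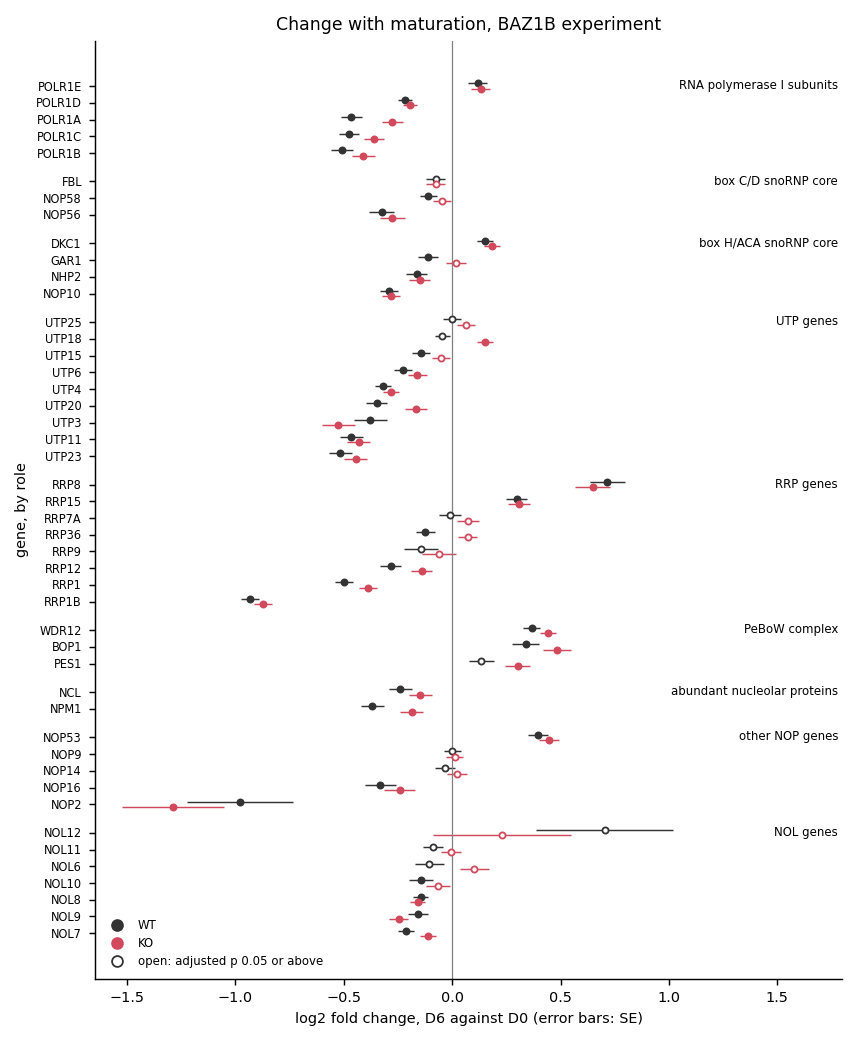
The log2 fold change from D0 to D6 of each tested member in WT (black) and KO (red) cells of the BAZ1B experiment, grouped by role, with SE as error bars and open points where the adjusted p was 0.05 or above. RRP1B lies at -0.93 and -0.87, the 3 PeBoW genes lie to the right of 0, and 4 of 5 RNA polymerase I subunits lie to the left.

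RRP1B, a nucleolar protein that binds protein phosphatase and is a relative of RRP1, fell furthest among the well counted members. Its normalized counts in BAZ1B WT cells were 11452, 11197 and 11246 at D0 and 5923, 6149 and 5690 at D6. In KO cells they were 11473, 10988 and 10785 at D0 and 6304, 5990 and 5855 at D6. The days were thus far apart and the genotypes alike, with log2 fold changes of -0.93 (SE 0.04, adjusted p = 7.8e-10) and -0.87 (SE 0.04, adjusted p = 1.4e-09). Its relative RRP1 also fell, by 0.50 and 0.39 on the log2 scale.

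In both genotypes 4 of 5 RNA polymerase I subunits fell (35.4% of all genes in WT and 34.5% in KO cells). POLR1A had 10294, 10038 and 9583 normalized counts in BAZ1B WT cells at D0 and 7191, 7628 and 6838 at D6, and in KO cells 10236, 9334 and 9396 at D0 and 7956, 7900 and 8062 at D6. Its log2 fold change was -0.47 (SE 0.05, adjusted p = 2e-06) in WT cells and -0.28 (SE 0.05, adjusted p = 0.00023) in KO cells. POLR1B, the other large catalytic subunit, had 4805, 4622 and 4507 counts in WT cells at D0 and 3446, 3336 and 3019 at D6. The days did not overlap, as for 39.9% of all genes that were lower at D6 in this way. POLR1B fell by 0.51 (SE 0.05) and, in KO cells, by 0.41 (SE 0.05). POLR1C and POLR1D, both shared with RNA polymerase III, fell by 0.48 and 0.22 in WT cells and by 0.36 and 0.20 in KO cells. POLR1E, a subunit that acts in initiation, rose slightly instead, by 0.12 (SE 0.04, adjusted p = 0.028) and 0.13 (SE 0.04, adjusted p = 0.017).

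The PeBoW genes went the other way. BOP1, the scaffold of the complex, had 6334, 5996 and 6153 normalized counts in BAZ1B WT cells at D0 and 7818, 7620 and 7937 at D6, and in KO cells 6130, 5026 and 5177 at D0 and 7750, 7822 and 7259 at D6. It rose by 0.34 (SE 0.06, adjusted p = 0.00035) and 0.48 (SE 0.06, adjusted p = 1.7e-05). WDR12 rose by 0.37 (SE 0.04) and 0.44 (SE 0.04), from 3686, 3737 and 3661 counts to 4767, 4842 and 4683 in WT cells and from 3796, 3571 and 3629 to 5059, 4744 and 5140 in KO cells. In both genes every D6 library exceeded every D0 library of its genotype, as for 38.1% of all genes in WT cells and 33.3% in KO cells. PES1 had 7740, 7558 and 7546 counts in WT cells at D0 and 8587, 8514 and 7976 at D6, a difference of 0.13 (SE 0.06) that missed the threshold (adjusted p = 0.052). In KO cells it rose by 0.30 (SE 0.06, adjusted p = 0.00044), from 7801, 6661 and 6632 to 8635, 8927 and 8435.

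Among the snoRNP proteins, FBL showed no called change: it had 24393, 23558 and 22834 normalized counts in BAZ1B WT cells at D0 and 23138, 21848 and 22117 at D6, -0.08 on the log2 scale (SE 0.04, adjusted p = 0.14), and -0.08 in KO cells as well. Its partner NOP56 fell by 0.33 (SE 0.06) and 0.28 (SE 0.06), from 12312, 11872 and 12046 to 9660, 9859 and 9391 in WT cells and from 13360, 11223 and 11303 to 10010, 9779 and 9828 in KO cells. NOP58 fell by 0.11 in WT cells (7165, 7061 and 7339 to 6914, 6735 and 6332) and had a log2 fold change of -0.05 (adjusted p = 0.33) in KO cells. The log2 fold changes of these 3 genes thus ran from -0.33 to -0.08 in WT cells, and differences between genes were not tested. In the H/ACA particle, the pseudouridine synthase DKC1 rose by 0.15 and 0.18 (9310, 9172 and 9089 to 10487, 9893 and 10234 in WT cells), whereas NOP10 fell by 0.29 and 0.28 and NHP2 by 0.16 and 0.15. GAR1 fell by 0.11 (adjusted p = 0.043) in WT cells and stood at 0.02 (adjusted p = 0.76) in KO cells.

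The abundant nucleolar proteins both fell. NPM1 had 60834, 58307 and 61869 normalized counts in BAZ1B WT cells at D0 and 48406, 48006 and 43846 at D6, a fall of 0.37 (SE 0.05, adjusted p = 3.5e-05), and in KO cells 61688, 55804 and 56349 at D0 and 53296, 48795 and 50536 at D6, a fall of 0.19 (SE 0.05, adjusted p = 0.0063). NCL went from 70758, 68503 and 69532 to 61120, 61167 and 54628 in WT cells, a fall of 0.24 (SE 0.05). In KO cells NCL fell by 0.15 (SE 0.05), from 73358, 65338 and 64689 to 61499, 62510 and 59681. In all 4 of these contrasts the libraries of the days did not overlap. Of all genes, 39.9% in WT cells and 34.6% in KO cells were lower at D6 without overlap.

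**Figure D3:**
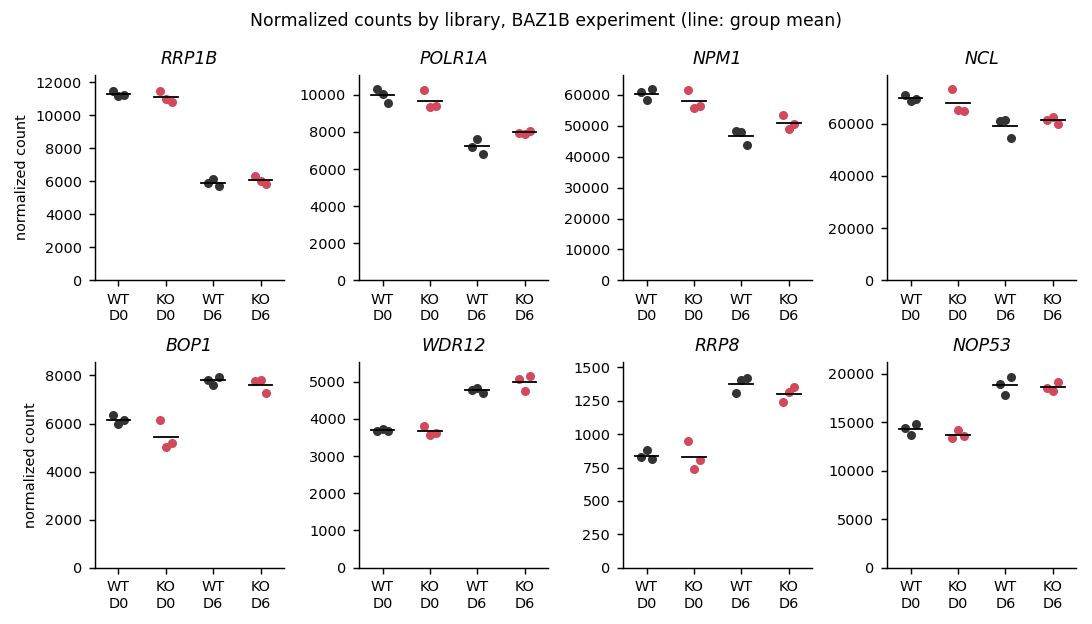
Normalized counts of 8 members in each library of the BAZ1B experiment, WT in black and KO in red, with lines at the group means and axes that begin at 0. RRP1B, POLR1A, NPM1 and NCL are lower at D6, BOP1, WDR12, RRP8 and NOP53 are higher at D6, and WT and KO libraries of a day lie close together.

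Of the UTP genes, 7 of 9 tested fell in WT cells and none rose, and 6 fell and 1 rose in KO cells, where 35.4% and 34.5% of all genes fell and 33.5% and 33.2% rose in WT and KO cells. UTP23, a factor of small subunit precursor cleavage, had 2402, 2241 and 2279 normalized counts in WT cells at D0 and 1691, 1625 and 1522 at D6, and fell by 0.52 (SE 0.05, adjusted p = 1.6e-06) and, in KO cells, by 0.44 (SE 0.05, adjusted p = 7e-06). UTP3 fell by 0.38 (SE 0.07) in WT and 0.53 (SE 0.08) in KO cells, where it went from 2040, 1690 and 1802 counts to 1321, 1329 and 1195. The large scaffold UTP20 fell by 0.35 and 0.17 and UTP11 by 0.47 and 0.43. UTP25 was not called, at 0.00 (SE 0.04) and 0.06 (SE 0.04), but rose by 0.16 and 0.20 under a correction for transcript length and GC content (adjusted p = 0.0025 and 0.00061). UTP18 had a log2 fold change of -0.05 (adjusted p = 0.28) in WT cells and rose by 0.15 (SE 0.04, adjusted p = 0.0022) in KO cells.

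The RRP, NOL and remaining NOP genes were mixed. RRP8, a methyltransferase of large subunit ribosomal RNA, rose most: it had 829, 878 and 812 normalized counts in BAZ1B WT cells at D0 and 1310, 1405 and 1421 at D6, and rose by 0.72 (SE 0.08, adjusted p = 4.1e-06) and, in KO cells, by 0.65 (SE 0.08, adjusted p = 1.1e-05). NOP53, an adaptor that brings the exosome to large subunit precursors, went from 14416, 13639 and 14825 to 18893, 17774 and 19691 in WT cells and rose by 0.39 (SE 0.05) and 0.45 (SE 0.05). RRP15 rose by 0.30 and 0.31. In these 3 genes all D6 libraries lay above all D0 libraries of WT cells, as for 38.1% of all genes and 9 of the 46 members. NOP2 went from 35.6, 59.5 and 48.5 counts to 25.7, 26.0 and 21.2 in WT cells, with log2 fold changes of -0.98 (SE 0.24) and -1.29 (SE 0.24), but its counts are too low and too much shared with another gene to weigh against the rest. Of the 7 NOL genes tested, 4 fell in WT cells and 3 in KO cells (35.4% and 34.5% of all genes), the largest called change being that of NOL9, a kinase of ribosomal RNA processing, which fell by 0.25 in KO cells.

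The other genes of the pathway were taken from 3 lists. Of 15 RNA polymerase I initiation factors and remaining subunits, 6 fell and 4 rose in BAZ1B WT cells (median log2 fold change -0.07) and 7 fell and 4 rose in KO cells (-0.08). UBTF, the factor that opens ribosomal DNA for transcription, rose by 0.87 and 1.04, while TAF1A of the promoter selectivity complex fell by 0.76 and 0.60 and RRN3, which carries the polymerase to the promoter, by 0.49 and 0.47. Of 36 further genes of the small subunit processome and its maturation, 16 fell and 10 rose in WT cells, with DCAF13 at -0.84 and RCL1 at 0.94. Of 45 further genes of large subunit assembly, 16 fell (35.6%) and 7 rose (15.6%) in WT cells and 15 fell (33.3%) and 14 rose (31.1%) in KO cells. Of all genes, 35.4% fell and 33.5% rose in WT cells and 34.5% and 33.2% in KO cells, so that the shares of the large subunit list that fell lay near those of all genes. SURF6 fell by 0.70, and SBDS, which frees the subunit for translation and is mutated in Shwachman-Diamond syndrome, rose by 0.56 in WT cells. The medians of these 2 lists in WT cells were -0.11 and -0.05, against -0.15 for the members.

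MYC itself did not fall with the members in the BAZ1B experiment. It had 25974, 25098 and 24233 normalized counts in WT cells at D0 and 30320, 29021 and 28833 at D6, a rise of 0.23 (SE 0.07, adjusted p = 0.011), and rose by 0.31 (SE 0.07, adjusted p = 0.0015) in KO cells. In the H2A.X experiment it was lower at D6, by 0.50 (SE 0.17, adjusted p = 0.044) in KO cells, with 13469, 14229 and 13335 counts at D0 and 8543, 8660 and 11819 at D6. In H2A.X WT cells the log2 fold change was -0.50 (SE 0.20, adjusted p = 0.20). The libraries of the experiments were counted and normalized separately, and the difference between them was not tested.

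The next comparison asks whether loss of BAZ1B altered the members at D0. None of 46 was called by edgeR, where 1.25% of all genes were higher and 2.64% lower; 4 had an unadjusted p below 0.05, and DESeq2 called 0. The median was -0.04. For the 44 members other than NOP2 and NOL12, log2 fold changes lay between -0.18 and 0.07 and the limits of 2 SE, taken over the members, between -0.30 and 0.16, with a median SE of 0.05. The largest, for BOP1, was -0.18 (SE 0.06, adjusted p = 0.17). Its KO libraries had 6130, 5026 and 5177 normalized counts against 6334, 5996 and 6153 in WT, and overlapped. Without BAZ1B KO D0 replicate 1, whose counts lie nearer to WT for BOP1, 3 members were called, and without the filter on low counts BOP1 was (adjusted p = 0.014).

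At D6, 3 of 46 members (6.52%) were higher in BAZ1B KO than in WT cells and 0 lower. Of all genes 6.87% were higher and 5.97% lower, so the share of members called higher lay near that of all genes. The median of the members was 0.04. GAR1 had 3431, 3369 and 3312 normalized counts in KO libraries and 3107, 3017 and 2706 in WT, 0.20 higher on the log2 scale (SE 0.05, adjusted p = 0.014). RRP36, a small subunit factor, had 3017, 3231 and 3004 against 2634, 2805 and 2687, at 0.19 (SE 0.04, adjusted p = 0.015). UTP18 had 3264, 3345 and 3493 against 3055, 3052 and 3108, at 0.13 (SE 0.04, adjusted p = 0.029). The genotypes did not overlap for any of the 3, which were picked by their calls. Of the 46 members, 7 (15.2%) were higher in KO cells without overlap, near the 15.7% of all genes. The call rests on few libraries: 0 members were called without BAZ1B WT D6 replicate 3, 1 without WT D6 replicate 1 and 1 without KO D6 replicate 2. At D6 the erythroid markers were also shifted, with 5 of 14 lower in KO cells and 0 higher and summed levels of 1244780 to 1470340 normalized counts against 1473550 to 1692840; the part of this in the members' values was not tested.

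Between the days the BAZ1B KO effect was also compared directly. Subtracting D0 from D6 gave a positive value for 39 of 46 members (median 0.07), and for 7111 of 13879 genes (median 0.01). No member was called by edgeR (1.58% of all genes higher, 0.893% lower); 6 had an unadjusted p below 0.05 and DESeq2 called 1, UTP18. UTP18 had a difference of 0.20 (SE 0.05, adjusted p = 0.066 by edgeR and 0.031 by DESeq2). Values for POLR1A (0.19, SE 0.07, adjusted p = 0.19) and NPM1 (0.18, SE 0.07, adjusted p = 0.25) missed the threshold as well. Without KO D0 replicate 1 the count was 4 and without KO D6 replicate 1 it was 1.

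For H2A.X, KO cells were compared to WT at each day. At D0, 20 of 46 members were lower and 6 higher in KO cells, where 16.7% of 13236 genes were lower and 18.4% higher, and the median was -0.39 against 0.01 for all genes. At D6, 17 were lower and 7 higher (20.9% and 22.2% of all genes), with a median of -0.28. Leaving out 1 of the 2 WT libraries of a day had unequal effects: without WT D0 replicate 2 none of the 46 was called at D0 and without replicate 1 25 were, and without WT D6 replicate 2 none was called at D6 and without replicate 1 19 were. Without KO D0 replicates 1, 2 or 3, 12, 16 or 13 members were called at D0, and without KO D6 replicate 1, 16 at D6. At D0 the erythroid markers were lower as well (10 of 14, median -1.42), and 3 of 5 measured mast cell and eosinophil markers were higher; their part was not tested.

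The members higher in H2A.X KO cells were led by UTP20. It had 1296, 1616 and 1742 normalized counts in KO libraries and 861 and 470 in WT at D0, and 1367, 1032 and 1065 against 501 and 374 at D6, with log2 fold changes of 1.22 (SE 0.27, adjusted p = 0.010) and 1.40 (SE 0.27, adjusted p = 0.0049). POLR1A had 2930, 3155 and 2937 counts in KO libraries and 1876 and 1322 in WT at D0, and was higher by 0.91 (SE 0.21) at D0 and 0.82 (SE 0.22) at D6. For POLR1B the values were 1559, 1799 and 1652 against 1094 and 851 at D0, and the differences 0.78 (SE 0.21) and 0.76 (SE 0.21). RRP1B was higher by 0.62 and 0.49 and UTP25 by 0.61 and 0.59. KO and WT libraries did not overlap for these 5 genes, which were picked by their calls, at either day. Of the 46 members, 7 at D0 and 8 at D6 were higher in KO cells without overlap. Of all 13236 genes, 4784 at D0 and 4104 at D6 were so, a larger share than of the members at both days.

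The members lower in H2A.X KO cells included snoRNP proteins. GAR1 had 1653, 1796 and 1784 normalized counts in KO libraries at D0 and 2714 and 4706 in WT, a fold change of -1.09 (log2, SE 0.27, adjusted p = 0.014), and -1.14 at D6. FBL had 8715, 10341 and 9681 against 14978 and 25003 at D0 and 7620, 7652 and 11821 against 18584 and 24224 at D6, or -1.06 (SE 0.26) and -1.24 (SE 0.26). At D0 the 2 WT libraries differed from each other, for both genes, by more than the gap between the lower of them and the highest KO library. NOP53 was lower by 1.04 and 1.11 on the log2 scale and NOP10 by 0.68 and 1.18. BOP1 had 1586, 2094 and 1961 counts against 3155 and 4023 at D0, and its values were -0.93 (SE 0.21) and -1.08 (SE 0.21). NPM1 and NCL were not called at D0: NPM1 had 21286, 23814 and 23260 against 24499 and 32809 (-0.33, adjusted p = 0.21) and NCL 27261, 30370 and 30162 against 34458 and 38455 (-0.32, adjusted p = 0.19).

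**Figure D4:**
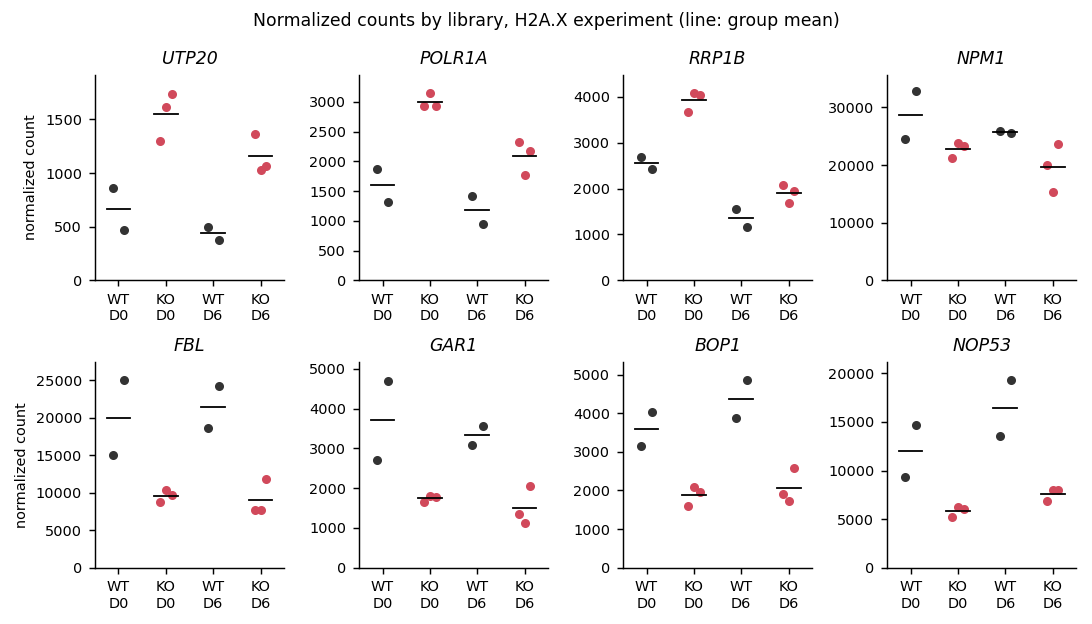
Normalized counts of 8 members in each library of the H2A.X experiment, WT (2 libraries a day) in black and KO (3 a day) in red, with lines at the group means and axes that begin at 0. UTP20, POLR1A and RRP1B are higher in KO libraries, FBL, GAR1, BOP1 and NOP53 are lower, and the 2 WT libraries of a day lie far apart for FBL and GAR1.

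The split followed transcript length. Across 12017 genes the Spearman correlation of the log2 fold change with the length of the canonical transcript was 0.545 at D0 and 0.602 at D6, and across the 46 members 0.548 and 0.693; genes of a library are not independent, and these are descriptions. For BAZ1B KO against WT it was -0.030 and 0.052 across genes. Of the 23 shorter members (507 to 2650 bases), 15 were lower and 0 higher in H2A.X KO cells at D0, with a median of -0.73. Of the 23 longer ones (2830 to 12480 bases), 5 were lower and 6 higher, with a median of -0.23. Of all genes of any length, 16.7% were lower and 18.4% higher. Whether the members differ from other genes of the same lengths was not tested. UTP20 at 9031 bases and POLR1A at 12480 bases are among the longest members, and FBL at 1125 and GAR1 at 1015 among the shortest. Not all long members were higher: WDR12 at 8068 bases and RRP15 at 7765 had log2 fold changes below 0 at both days.

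With a correction for length and GC content in each library, 10 members were lower and 0 higher at D0 (10.3% and 10.8% of all genes) and 8 lower and 0 higher at D6 (9.76% and 10.7%), with medians of -0.31 and -0.13. POLR1A then stood at -0.02 and 0.01, POLR1B at 0.06 and -0.05, UTP25 at -0.19 and -0.26 (adjusted p = 0.44 and 0.27) and NOP10 at 0.01 and -0.09. UTP20 stood at 0.40 (adjusted p = 0.21) and 0.47 (adjusted p = 0.16), and FBL at -0.41 (adjusted p = 0.11) and -0.37 (adjusted p = 0.15). The calls shared with the uncorrected test in the same direction were 5 at D0 and 4 at D6. RRP7A (-1.32 and -1.43 after the correction), RRP8 (-1.29 and -1.26) and UTP3 (-0.56 and -0.49) were called lower at both days in both ways. As counted, the lowest value of any RRP gene was -0.92 at D0 and -1.10 at D6, so the corrected values of RRP7A and RRP8 are further from 0. WDR12, RRP15 and NOL9 were called lower at D0 and D6 after the correction, at -1.03 and -1.12, -1.29 and -0.93, and -1.04 and -0.95, and of the called members 8 at D0 came from the longer 23. The canonical transcripts of WDR12, RRP15 and NOL9 are long (8068, 7765 and 6627 bases), as are those of RRP7A (5419) and RRP8 (6559). Whether these cells use shorter ones was not examined. Column names of 5 of the 6 H2A.X KO libraries carried the word Redo, and no WT library did, so that at D0 this mark and genotype cannot be told apart. In the 1 KO library at D6 without it the correlation with length against the 2 WT libraries was 0.576 across genes and 0.675 across the members, and UTP20 stood at 1.28 and FBL at -0.85.

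**Figure D5:**
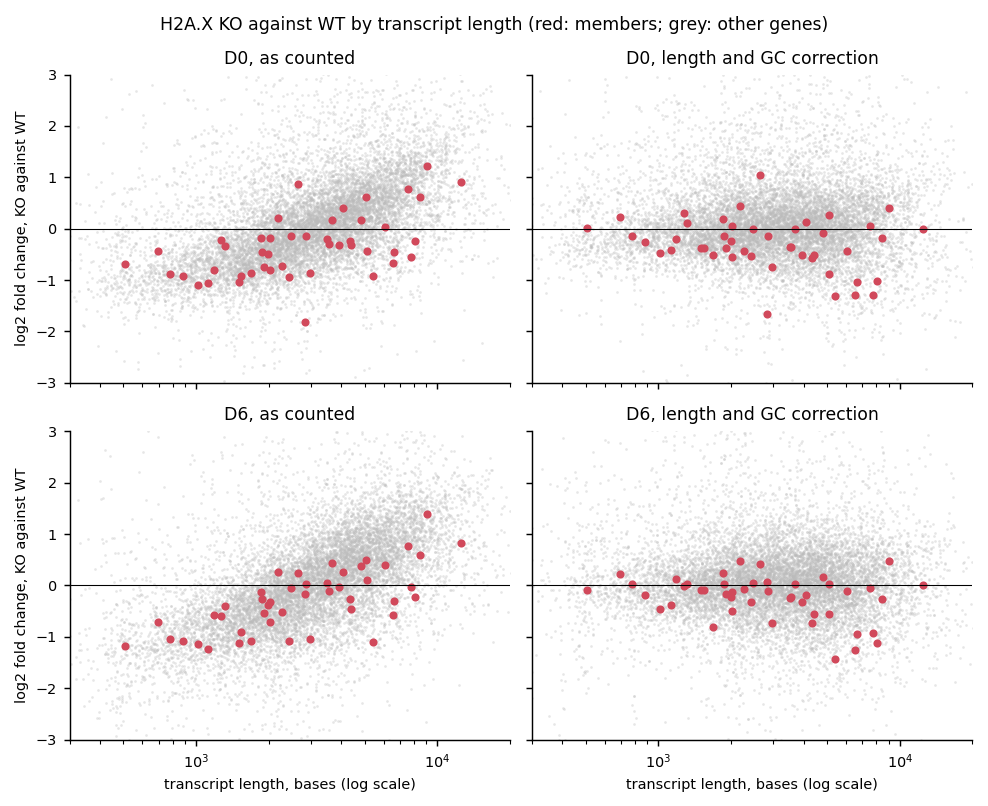
The log2 fold change of H2A.X KO against WT by transcript length (log scale) at D0 and D6, as counted and after the length and GC correction, for members (red) and other genes (grey; those beyond the limits of the axes are not drawn). As counted, the called members among the 23 shorter lie below 0. POLR1A and UTP20, among the longest, lie above 0, and WDR12 and RRP15, which are also long, lie below it. After the correction no member was called higher, and the called ones lie below 0.

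With maturation, 2 members fell and 0 rose in H2A.X WT cells (1.16% and 0.839% of all genes), and 3 fell and 1 rose in H2A.X KO cells (16.1% and 14.8%); medians were -0.17 in both. With the clone number as a block, which pairs the days, 7 fell and 3 rose in KO cells, where 20.3% and 18.2% of all genes did, so that both counts lay below the shares of all genes. RRP1B went from 2685 and 2428 normalized counts to 1548 and 1167 in WT cells and from 3680, 4086 and 4034 to 2084, 1688 and 1949 in KO cells, with log2 fold changes of -0.91 (SE 0.18, adjusted p = 0.036) and -1.04 (SE 0.14, adjusted p = 0.00073). UTP23 went from 1004 and 1078 to 688 and 598 in WT cells and from 1209, 1149 and 1156 to 907, 797 and 906 in KO cells, or -0.69 (SE 0.15, adjusted p = 0.048) and -0.43 (SE 0.12, adjusted p = 0.024). These 2 genes, the 2 called in H2A.X WT cells, fell in all 4 genotype groups of the study. The groups hold separate libraries, but WT and KO of an experiment share 1 estimate of the spread, so their calls are not independent. The days of these 2 genes did not overlap in any group. Of all genes, 26.1% in H2A.X WT, 25.2% in H2A.X KO, 39.9% in BAZ1B WT and 34.6% in BAZ1B KO cells were lower at D6 without overlap. The share of all genes that fell in all 4 groups is not given here. POLR1B fell by 0.55 (adjusted p = 0.048) in KO cells, from 1559, 1799 and 1652 to 1200, 947 and 1282, and had -0.53 (adjusted p = 0.23) in WT cells. RRP8 rose by 0.48 (SE 0.15, adjusted p = 0.033) in KO cells, from 365, 338 and 334 to 466, 475 and 509, and in WT cells had 464 and 635 counts at D0 and 682 and 766 at D6 (0.40, adjusted p = 0.24). The 2 calls in WT cells were lost, leaving 0, without H2A.X WT D0 replicate 1 or 2, without WT D6 replicate 2 and without KO D0 replicate 1, 2 or 3, and the count was 1 without KO D6 replicate 1 or WT D6 replicate 1. The KO count fell to 1 without KO D0 replicate 1, 2 or 3 or KO D6 replicate 2, and rose to 9 without KO D6 replicate 3.

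For H2A.X, the change of the KO effect between the days was called for 0 of 46 members by edgeR and by DESeq2 (0.302% of all genes higher, 1.04% lower), 2 having an unadjusted p below 0.05, and the median was 0.01. Limits of 2 SE for the 44 well counted members reached from -1.10 to 1.02, with a median SE of 0.26. Stricter cut-offs, a log2 fold change beyond 1.5 in either direction with an adjusted p under 0.001, took 0 members in each of the 10 comparisons by edgeR. The same cut-offs took 11.7% of all genes for maturation in BAZ1B WT cells, 11.5% in BAZ1B KO cells and 3.22% in H2A.X KO cells, 0.36% and 0.749% for BAZ1B KO against WT at D0 and D6, and 0.166% and 0.151% for H2A.X KO against WT. The study's methods give this fold and a p that is not said to be adjusted; with an unadjusted p under 0.001, a choice made after seeing the data, the members called were again 0 in each comparison, against 3.88% and 5.53% of all genes for H2A.X KO against WT at D0 and D6.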

How the data were processed

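HUDEP-2 polyA RNA-Seq libraries (22, in 2 experiments) were analysed. The deposited values are raw read counts per gene, which the authors made with STAR 2.7.0f and featureCounts of Subread 1.6.4 on hg38 (the submitters' processing notes), apart for each experiment; the strand setting is not given in the sources used here, and no column of another series was present. Groups come from the labels, and whether replicates are separate cultures beyond separate clones is not stated, so p-values measure the spread between these libraries.

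Each experiment was fitted whole in R 4.3.3 with edgeR 4.0.16 (TMM, filterByExpr with minimum count 10 and total 15, quasi-likelihood F test, two-sided, Benjamini-Hochberg over all genes tested); called means adjusted p below 0.05. Normalized counts are counts divided by effective library size times its mean over the experiment, and are not comparable between experiments. The members and gene lists were chosen with earlier results of these data known. Values by library are given for 10 genes chosen for their roles and for up to 4 called members with the largest log2 fold change in each direction of a comparison. Transcript length and GC content came from GENCODE canonical transcripts on GRCh38, for which 12017 and 12408 tested genes had a value; the correction fits log2 counts per library to splines of both (5 degrees of freedom), centred on the median gene. Alternatives were DESeq2 1.42.0, other normalization, no filter, no globin genes, the corrections, each library left out, fewer libraries and a replicate block. Scripts were tested on simulated data. The main fit held no clone term, since the labels do not say that a number marks 1 clone on both days. The replicate block, an alternative, used the numbers in all cells, within genotypes for the days and across KO and WT for the genotypes. Deviations of libraries sharing a number on both days correlated at 0.299 to 0.599 in H2A.X cells. They correlated at 0.167 to 0.654 in BAZ1B KO and 0.024 to 0.181 in BAZ1B WT cells. The 2 H2A.X WT pairs hold the same value (0.483), as deviations in a group of 2 mirror each other. Between KO and WT the correlations ran from -0.048 to 0.210. Differences between the read protocol in the labels and in the study's methods (kit and read length) were not resolved.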

Additional observations from a re-analysis of the deposited data

Results flagged for a closer look

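No member was flagged. The KO effect differed between the days, by the test of the difference itself (edgeR quasi-likelihood test), for 4 marker genes of the cells. In the H2A.X experiment the mast cell tryptases TPSB2 (difference on the log2 scale -5.49, adjusted p = 0.0085) and TPSAB1 (-6.19, adjusted p = 0.0078) were flagged. TPSB2 had 1232 and 1735 normalized counts in WT cells at D0 and 2663 and 1789 at D6, but 3855, 1861 and 2053 in KO cells at D0 and 76.2, 34.2 and 150 at D6. TPSAB1 had 578 and 702 counts in WT cells at D0 and 1395 and 746 at D6, and 13.3 to 80.1 in KO cells at D6. In the BAZ1B experiment HBB (hemoglobin beta) had a difference of -0.84 (adjusted p = 0.018) and SLC4A1 (the anion exchanger of the red cell membrane) one of 2.11 (adjusted p = 0.0053). SLC4A1 had 77.2 to 239 counts in KO cells and 1163 to 1277 in WT cells at D0, and 67008 to 94407 and 124018 to 156347 at D6. The part of these differences in the members' values was not tested.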

How the results depend on the processing

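Counts of called members were 35 and 32 for maturation in BAZ1B WT and KO cells and stayed within 1.5 times of these under every alternative but the stricter cut-offs (with an adjusted p or, chosen after seeing the data, an unadjusted p), which left 0 there, as in both H2A.X maturation comparisons, H2A.X KO against WT at D0 and D6, and BAZ1B KO against WT at D6. The length and GC correction gave 10 (from 26) and 8 (from 24) for H2A.X KO against WT at D0 and D6, 8 (from 4) and 1 (from 2) for maturation in H2A.X KO and WT cells, and 1 (from 0) for the difference of BAZ1B KO effects. With the replicate block and this correction, the counts were 11 for H2A.X KO against WT at D6, 14 and 4 for H2A.X KO and WT maturation, 5 for BAZ1B KO against WT at D6 (from 3) and 2 for the difference of BAZ1B KO effects. The replicate block alone, a pairing by clone number, gave 10 for H2A.X KO maturation and moved no other count by over 1.5 times. No filter on low counts gave 7 for H2A.X KO maturation and 1 for BAZ1B KO against WT at D0 (from 0). DESeq2 gave 4 for H2A.X WT maturation and 1 for the difference of BAZ1B KO effects, and upper-quartile normalization 1 for H2A.X WT maturation. Fits of only the groups compared gave 14 for H2A.X KO against WT at D6, 1 for H2A.X WT maturation and 1 for BAZ1B KO against WT at D6. The 1 KO and 2 WT libraries at D6 without the word Redo, an alternative chosen after seeing the data, gave 0.

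Leaving out 1 library at a time gave 0 to 28 for H2A.X KO against WT at both days, 0 to 3 for H2A.X WT and 1 to 9 for H2A.X KO maturation, 0 to 3 and 0 to 4 for BAZ1B KO against WT at D0 and D6, 30 to 38 and 27 to 32 for BAZ1B WT and KO maturation, and 0 to 4 for the difference of BAZ1B KO effects. Where 1 library was left in a group, it was assumed to vary like the others.

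Of the fold changes of named members, 10 changed sign with a call in either fit under at least 1 alternative, 9 of them in H2A.X KO against WT. Under the length and GC correction these were, at D0, NOP10 (0.015), POLR1A (-0.016) and UTP25 (-0.19) and, at D6, POLR1B (-0.047), RRP36 (0.13) and UTP25 (-0.26). With the replicate block added they were, at D0, POLR1A (-0.11), POLR1B (-0.033) and UTP25 (-0.25) and, at D6, POLR1A (-0.12), POLR1B (-0.17), RRP1B (-0.0066), RRP36 (0.085) and UTP25 (-0.34). UTP25 rose with maturation in BAZ1B WT cells under both (0.16 and 0.16). The cause was not tested. In the H2A.X experiment, 2 WT libraries a day limit precision.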

Other observations

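Of the 10 genes of a list of MYC, its partners and its antagonists, 8 were measured, and 6 of these were called as BAZ1B cells matured. MAX, the obligate partner of MYC, fell by 1.20 on the log2 scale in WT and 1.39 in KO cells, and MGA, another MAX-binding protein, by 0.74 and 0.70. The MAX-binding repressors MXD3, MXI1 and MXD4 rose, by 2.41, 1.85 and 0.88 in WT cells and by 2.01, 1.57 and 0.83 in KO cells. With MYC, 4 genes of the list rose and 2 fell in each genotype (edgeR quasi-likelihood test), where 33.5% of all genes rose and 35.4% fell in WT cells and 33.2% and 34.5% in KO cells. In H2A.X KO cells 3 rose and 2 fell (14.8% and 16.1% of all genes), and in H2A.X WT cells 0 of 8 was called by edgeR, with 3 at an unadjusted p below 0.05, and DESeq2 called 1.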
